A study of Mus musculus with 6 samples.

Results

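The 7 actin genes Actb, Actg1, Actg2, Acta1, Acta2, Actc1 and Actbl2 were followed across 6 Illumina mouse beadchips, which name 17830 genes. Every probe whose array symbol was 1 of these names was taken, which gave 13 of the 25697 probes and covered 6 of the 7 genes. Actb had 5 probes, Acta2 had 3, Actc1 had 2, and Actg1, Actg2 and Acta1 had 1 each, while Actbl2 had 0 under its own symbol. A further 2 probes, listed under the clone names 0610041G09Rik and 4732495G21Rik, are named by RefSeq synonyms of Acta2 and Actbl2, and their values are given beside the others. Probes were chosen by symbol, and the genes were selected on the measured difference between the groups, because 2 of the Actb probes were about 34-fold brighter in transfected cells and the other 3 were not. The values of all these probes in this comparison are therefore a description, with no test.

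The RNA came from STHdh cells, an immortalized mouse line of striatal origin. It was taken from 3 samples of control cells, whose titles name the plasmid pcDNA and whose genotype is given as wild-type, and from 3 samples of cells transfected with Foxp1, titled mFoxp1. Whether the controls received the empty plasmid is not stated, nor is the time after transfection, nor whether the replicates were separate cultures, so errors here may be technical. The study asks by its title about repression of immune signalling by Foxp1, a forkhead transcription factor. RNA was measured in bulk, so fewer cells of a kind and less RNA per cell cannot be told apart.

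Actin is the protein of the microfilaments that shape, move and divide cells. Actb and Actg1 encode the cytoplasmic beta and gamma forms found in nearly all cells, and Actb is widely used as a reference gene. Acta2 and Actg2 encode the smooth muscle forms, Acta1 the skeletal muscle form and Actc1 the cardiac form, and Actbl2 is a less studied relative of beta-actin. The coding sequences of these genes are much alike, so a probe within them can bind RNA of more than 1 member, and where each probe lies was not analysed here.

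The arrays detected between 45.9% and 48% of probes at a detection p under 0.05, and the median intensity was between 29.2 and 38.3 on the replicate 1 and 2 arrays of both groups but 77 on control replicate 3 and 64.5 on Foxp1 replicate 3. Levels are therefore given as deposited intensities and as log2 values after background correction and quantile normalization. Foxp1 checked the labels: the intensity of its probe ran from 621 to 1048 in controls and from 4967 to 5250 after transfection, a log2 difference of 2.62 ± 0.17 (SE, limma adjusted p = 0.0005). Of 10 striatal neuron markers on the array, only Ppp1r1b, Drd2 and Pde10a had a probe detected on at least 3 arrays, while Drd1, Tac1, Adora2a, Bcl11b, Gad1, Gad2 and Rgs9 had none. The summed intensity of the 13 striatal marker probes was low, from 249 to 586 over all arrays. Of 6 neural progenitor markers, Nes, Sox2 and Vim were detected.

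The Actb probes fell into a pair that differed between the groups by a large amount and a trio with small differences. Probe ILMN_2846865 had an intensity of 202 on control array 1, 469 on control array 2 and 218 on control array 3. The same probe read 12307, 14643 and 7392 on the Foxp1 arrays, in the order of replicates 1 to 3 used throughout. Every transfected array was thus far above every control array for this probe. The normalized mean went from 8.27 ± 1.05 (SD, n = 3) to 13.37 ± 0.77 (SD, n = 3) with Foxp1, which is 5.10 ± 0.54 (SE) on the log2 scale or 34.2-fold.

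The partner probe, ILMN_2588055, had control intensities of 162, 409 and 210. Its intensities were 10338, 13223 and 6489 on the Foxp1 arrays. Here too the groups lay apart with no overlap. The normalized means were 8.09 ± 0.99 (SD, n = 3) and 13.18 ± 0.79 (SD, n = 3), which gives a log2 difference of 5.09 ± 0.52 (SE), or 34.1-fold. On the deposited intensities, without normalization, the ratio of group means was 38.6 for ILMN_2846865 and 38.5 for ILMN_2588055.

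The pair was detected on all 6 arrays, so the control values are measured levels and not a floor. The highest detection p among them was 0.00251, on control array 3. Taken between arrays of the same replicate number, the ratio of intensities was 61, 31.2 and 33.9 for ILMN_2846865. The corresponding ratios were 64, 32.4 and 30.9 for ILMN_2588055. The ratio was thus highest for replicate 1 on both probes.

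**Figure D1:**
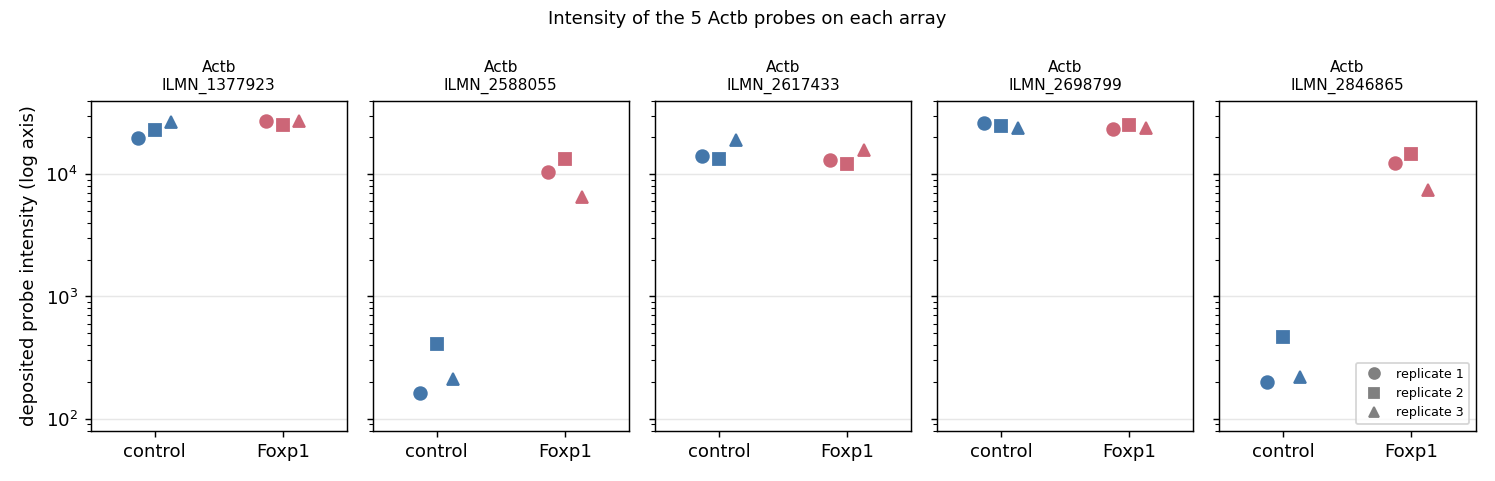
Deposited intensity (log axis) of each of the 5 Actb probes on the 3 control and 3 Foxp1-transfected arrays, 1 point per array, with the marker showing the replicate number. ILMN_2588055 and ILMN_2846865 sit between 162 and 469 on control arrays and between 6489 and 14643 on Foxp1 arrays, while the other 3 probes lie between 12197 and 27378 on all arrays.

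The other 3 Actb probes were bright on every array. Probe ILMN_1377923 read 19730, 23036 and 26842 on the control arrays and 27378, 25210 and 27225 on the Foxp1 arrays. The 2 groups overlapped, and the log2 difference was 0.13 ± 0.10 (SE). Probe ILMN_2698799 read 26388, 24978 and 23797 in controls and 23582, 25215 and 23877 in transfected cells. Its groups overlapped as well, with a log2 difference of -0.06 ± 0.10 (SE).

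Probe ILMN_2617433 read 14009, 13346 and 19187 in controls and 13139, 12197 and 15747 in transfected cells. Its deposited intensities overlapped, since replicate 3 was the brightest in either group. After normalization its 3 Foxp1 arrays lay below its 3 control arrays (log2 13.72 ± 0.05 against 13.96 ± 0.09, SD, n = 3), a difference of -0.25 ± 0.09 (SE) or 1.19-fold. The sign of this probe's difference was thus opposite to that of the pair.

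These 3 probes lay high in the range of the arrays, whose highest intensities were between 29597 and 30519. ILMN_2698799 stood at 79.2% to 86.5% of its array's maximum, ILMN_1377923 at 64.6% to 92% and ILMN_2617433 at 41% to 64.8%. Between 46 and 147 of the 25697 probes exceeded 20000 on an array. ILMN_2846865 and ILMN_2588055 reached at most 49.2% and 44.4% of the maximum. Whether the scanner's ceiling compressed differences of the brightest probes was not tested.

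The pair moved as 1 within the groups too. Control array 2 was above its group mean by 1.08 (log2) on ILMN_2846865 and by 1.06 on ILMN_2588055, and control array 3 was below it by 1.02 and 0.89 (deviations of -1.02 and -0.89). Among the Foxp1 arrays, array 2 was again highest, by 0.59 and 0.65, and array 3 again lowest, at -0.88 on both probes. The correlation between the pair's deviations from group means was 0.995 over 6 arrays that share the same labelling and scan, a description of these arrays. With the replicate number as a block in the fit, the SE of the difference went from 0.54 to 0.16 on ILMN_2846865 and from 0.52 to 0.16 on ILMN_2588055. The trio spread far less, with deviations from -0.13 to 0.15. Foxp1 itself deviated by 0.19, 0.05 and -0.24 on the control arrays and by 0.12, 0.21 and -0.33 on the Foxp1 arrays.

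Against the whole array, the pair had the largest differences of all. Of 12136 probes detected on at least 3 arrays, 2 differed by 3 or more on the log2 scale, and both were Actb probes. The next was Foxp1 at 2.62. The SEs of the pair were also high, behind that of a single probe among all of these, 1 for Golga2.

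Probes of the same gene mostly gave similar differences. Over the 2372 genes with at least 2 detected probes, the range between the highest and the lowest log2 difference of a gene had a median of 0.15 and a 99th percentile of 0.69. For Actb it was 5.34, from -0.25 to 5.10, which was 2.69 times the next range. That next range belonged to Golga2, a Golgi matrix protein, with 4 probes and a range of 1.98. Armc9, an armadillo repeat protein of the primary cilium, followed with 4 probes and 1.35. Chka, a choline kinase, had 3 probes and 1.25, and Espn, the actin-bundling protein espin, had 2 probes and 1.13. Both Espn probes were detected on only 3 arrays, so its range rests on dim values. ILMN_3107059 read 33.4, 18.3 and 43.6 in controls and 92.8, 101.7 and 175 on the Foxp1 arrays. Its log2 difference was 1.25 ± 0.14 (SE), and that of ILMN_3045869 was 0.11 ± 0.16 (SE). The Foxp1 readings of ILMN_3107059 were its 3 highest, so its control level may be a floor and the 1.25 is not a measured fold. Among 30 genes with 5 or more detected probes, the next widest after Actb was Siah1b, a ubiquitin ligase, at 1.01.

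**Figure D2:**
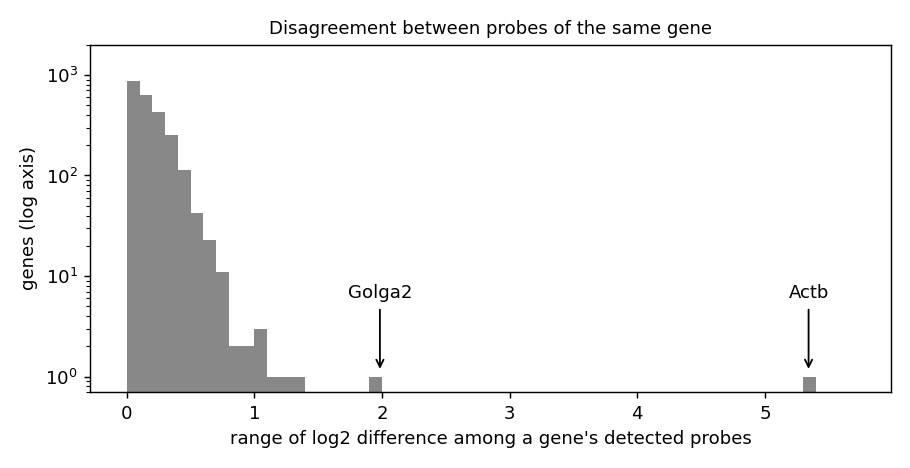
Histogram over 2372 genes of the range of log2 difference among a gene's detected probes (x axis, log2 units; y axis, number of genes on a log scale). The median gene has a range of 0.15, Golga2 stands at 1.98 and Actb alone beyond it at 5.34.

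The choice of probe therefore set the value for the gene. Represented by its brightest probe, Actb had a log2 difference of 0.13 ± 0.10 (SE). As the mean over its 5 probes it was 2.00 ± 0.23 (SE), a level that none of the 5 probes showed. As the probe with the highest difference it was 5.10 ± 0.54 (SE). In the authors' deposited table of processed values, the mean differences of the same 5 probes were 4.93 (ILMN_2846865), 4.90 (ILMN_2588055), 0.15 (ILMN_1377923), -0.08 (ILMN_2698799) and -0.27 (ILMN_2617433), so the split is in that table as well.

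Other genes in common use as references were read next, each by its brightest detected probe. A split between probes cannot show by that measure, under which Actb itself differed by 0.13 ± 0.10 (SE). Of 20 detected reference genes, 0 rose and 0 fell by limma (threshold 0.05 on the adjusted p; 0 also at an unadjusted p under 0.05, where 18.5% of all genes were), and their log2 differences ran from -0.22 to 0.27 with a median of 0.01. Over all 8789 genes tested, 2.73% passed. The 2 reference genes with the smallest p were Tfrc, the transferrin receptor (0.27 ± 0.12 SE, adjusted p = 0.292), and Tuba1a, an alpha-tubulin (-0.22 ± 0.10 SE, adjusted p = 0.305). Gapdh, the glycolytic enzyme, differed by 0.01 ± 0.11 (SE, adjusted p = 0.965). Its probe read between 22958 and 26455, high in the range of the arrays. Whether the scanner's ceiling compressed differences of such bright reference probes was not tested. A split could be seen only in the 11 reference genes with at least 2 detected probes. Their ranges between probes ran from 0.02 to 0.29, the highest being that of Gusb, a lysosomal glucuronidase.

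Acta2, the smooth muscle alpha form that is also made by activated mesenchymal cells, was bright on every array and somewhat lower after transfection. Probe ILMN_2710353 read 6858, 7156 and 11457 in controls and 5689, 5637 and 7600 on the Foxp1 arrays. Between arrays of the same number the ratio was 0.83, 0.788 and 0.663, each below 1. The deposited intensities of the groups overlapped, while the normalized levels did not (13.10 ± 0.10 against 12.61 ± 0.09, SD, n = 3). The log2 difference was -0.49 ± 0.10 (SE), or 1.4-fold lower.

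Probe ILMN_2710354 read 8775, 7984 and 13319 in controls and 7575, 6718 and 9829 in transfected cells. The ratios at the same number were 0.863, 0.841 and 0.738, and the log2 difference was -0.40 ± 0.10 (SE). Its normalized values were lower on each Foxp1 array than on any control array. The third probe, ILMN_2923445, read 11211, 11313 and 18456 in controls and 11386, 10850 and 15119 in transfected cells. On replicate 1 its ratio was 1.02, and the log2 difference was -0.21 ± 0.09 (SE), again with no overlap after normalization.

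The probe listed as 0610041G09Rik (ILMN_2693895), which RefSeq gives as a synonym of Acta2, read 23453, 24111 and 23352 in controls and 21154, 21485 and 23628 in transfected cells. It stood at 71.1% to 81.3% of the array maximum. Its groups overlapped, and the log2 difference was -0.14 ± 0.10 (SE). The 4 Acta2 probes thus shared a negative sign within a range of 0.35.

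**Figure D3:**
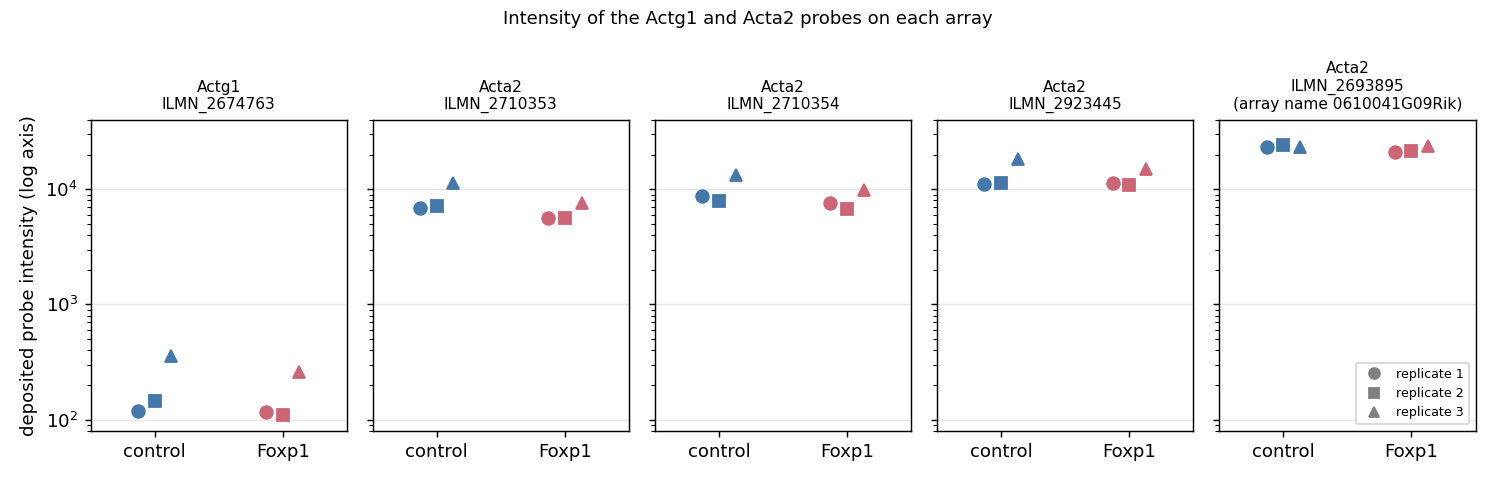
Deposited intensity (log axis) of the Actg1 probe and the 4 Acta2 probes on each array, with 1 point per array and the marker showing the replicate number. The Acta2 probes lie between 5637 and 24111, the replicate 3 array is the brightest of its group on the 3 probes listed as Acta2, and Actg1 lies between 109 and 358.

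Markers of smooth muscle were read beside Acta2. Of 8 markers on the array, Tagln, Smtn and Myocd had a probe detected on at least 3 arrays, and Myh11, Cnn1, Des, Lmod1 and Synpo2 had none. The summed deposited intensity of the list's 12 probes ran from 4288 to 6880 in controls and from 5380 to 7402 in transfected cells. The groups overlapped. By their brightest probes Tagln read between 103.2 and 303.3 and Myocd between 41.3 and 98, so the sum came mostly from Smtn. The 3 detected Smtn probes gave log2 differences over a range of 0.51. Of the 3 detected genes, 0 passed the test in either direction, where 2.73% of all genes passed. A 0 among so few genes says little. Tagln, the actin-binding protein transgelin, differed by -0.25 ± 0.11 (SE, adjusted p = 0.282).

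Actg1, the cytoplasmic gamma form, had a single probe with low intensities. ILMN_2674763 read 118, 144 and 358 in controls and 117, 109 and 261 in transfected cells. The groups overlapped on this probe, with replicate 3 the highest of each. The normalized mean was 7.73 ± 0.19 (SD, n = 3) without and 7.40 ± 0.28 (SD, n = 3) with Foxp1, and the log2 difference -0.33 ± 0.16 (SE).

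The remaining members were detected on 0 of 6 arrays. The Acta1 probe ILMN_2738825 read 0.94, 9.57 and -9.02 in controls and 7.78, 3.47 and 12.61 in transfected cells. The Actg2 probe ILMN_2839313 read -3.12, -9.97 and -29.63 in controls and -8.92, 0.46 and -11.45 in transfected cells. Negative values are what background subtraction leaves for a probe near the background, and no fold is given for these. The Actc1 probe ILMN_2598916 read 0.02, 3.52 and 16.95 against -4.53, -10.05 and 15.13, and the other, ILMN_2767216, -8.14, -3.33 and -24.91 against 7.07, -5.16 and -21.36. The probe listed under the Actbl2 synonym 4732495G21Rik (ILMN_2596812) read -7.76, -20.3 and -44.71 against -19.05, -22.41 and -29.44. The groups overlapped on each of these 5 probes. Of the cardiac markers on the array, Nkx2-5 was detected and Myh6, Myh7, Tnni3, Nppa, Myl2 and Myl7 were not. Of the skeletal markers, Myog, Tnni2 and Actn3 were detected and Ckm, Myod1, Myf5, Myh1, Myh4, Tnnt3 and Ttn were not. Over all arrays the summed intensity was 99 to 195 for the 8 cardiac probes and 152 to 587 for the 15 skeletal probes, so the detected ones were dim.

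Altogether 9 of the 13 probes were detected on at least 3 arrays, and each of these on all 6. Of the 9, 3 were higher and 6 lower by the fitted difference (median -0.21, against 0.00 over all 12136 detected probes). On normalized values 2 of the 9 had all Foxp1 arrays above all control arrays, where 11.4% of all detected probes did, and 4 had them all below, where 13.4% did. The members were chosen with this contrast in view, and nothing further is read from these counts.

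**Figure D4:**
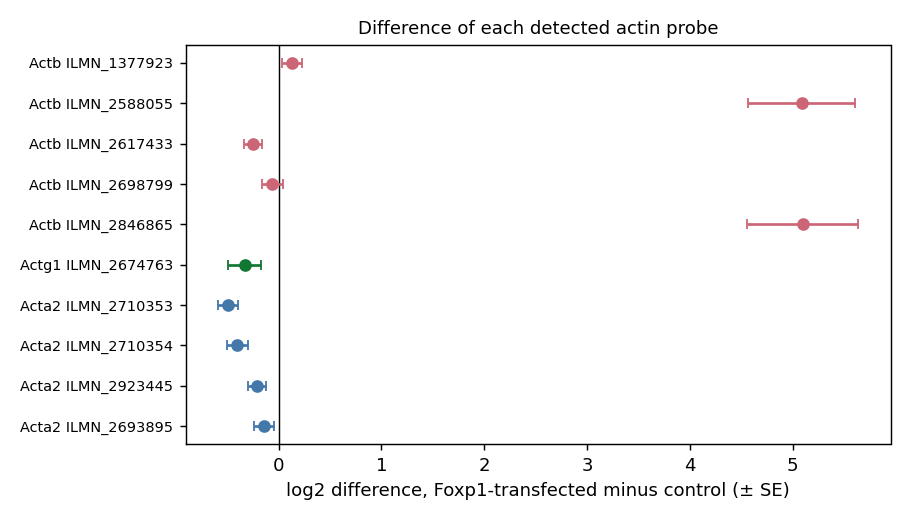
Log2 difference (Foxp1-transfected minus control, x axis) of each actin probe detected on all 6 arrays, with bars of 1 SE from the limma fit on 3 arrays per group. ILMN_2588055 and ILMN_2846865 of Actb lie at 5.09 and 5.10, and the other 8 probes between -0.49 and 0.13.

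The genes whose normalized values followed an Actb probe most closely were ranked by Pearson's r over the 6 arrays, as a description. For ILMN_2846865 the 5 highest were Stk40 (0.997) and Mdm2, Fbxo38, Tomm22 and Cdkn1a (each 0.996), whose own log2 differences were far smaller, from 0.21 for Tomm22 to 1.54 for the Cdkn1a probe in question. For the brightest probe, ILMN_1377923, they were 1700001C14Rik, Cox11, Cyp20a1, Abhd17b and Myo10, with r between 0.989 and 0.993. The 2 lists share 0 genes. With lists this short and reference probes of unlike group difference, nothing is read from that. The points share 6 arrays on which the groups differ.

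Other genes of the actin system were read from 6 lists by role, with each gene represented by its brightest detected probe. Of 118 distinct detected genes, 0 rose and 0 fell by limma, where 2.73% of all genes passed (1.58% higher, 1.15% lower). At an unadjusted p under 0.05, 4 were higher and 7 lower, or 11 of 118, while 18.5% of all genes were. Their log2 differences lay between -0.41 and 0.35 with a median of -0.01. Espn, given above, was on none of the 6 lists. Its probes, each detected on only 3 arrays, differed by 0.11 ± 0.16 (SE) and by 1.25 ± 0.14 (SE). The latter lies beyond this span, but its control values are dim and may be a floor. The count of 240 genes called over the whole array went to 29, 28 and 90 without Foxp1 array 1, 2 or 3. It went to 93, 75 and 265 when control array 1, 2 or 3 was dropped. The count on each list remained 0 in all 6 fits without 1 array. Those fits rest on fewer arrays and mostly called fewer genes, so a 0 that stays 0 there says little. With other alternatives, such as an offset of 50, the list with capping proteins had a count of 1, as given below.

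Nucleation of filaments is served by the Arp2/3 complex and by formins. Of 14 detected actin-related and Arp2/3 genes, 6 differences were positive and 8 negative (median -0.07). Over all 8789 genes, 4350 were positive and 4439 negative, with a median of 0 and a median SE of 0.12. The sign counts of this and the next lists were not tested. The Arp2/3 subunits Arpc5 (-0.27 ± 0.12 SE, adjusted p = 0.274) and Arpc1b (-0.21 ± 0.10 SE, adjusted p = 0.316) had the smallest p. Of 22 nucleators and their regulators, 16 were positive and 6 negative (median 0.08). The formins Fhod1 (-0.38 ± 0.10 SE, adjusted p = 0.114) and Daam1 (0.25 ± 0.11 SE, adjusted p = 0.274) led that list in opposite directions.

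Proteins that bind monomers, sever or cap filaments had 8 positive and 17 negative differences among 25 detected genes (median -0.12). Closest to the threshold of all was Capzb, the beta subunit of the capping protein of barbed ends, which read 5440, 5187 and 9678 in controls and 4754, 4448 and 6554 in transfected cells. Its intensities overlapped between the groups and its normalized levels did not, with a log2 difference of -0.41 ± 0.09 (SE, adjusted p = 0.0574). Capzb passed with an offset of 50, with array weights, on the authors' values and among probes detected on all 6 arrays, with adjusted p from 0.0224 to 0.205 over all 15 alternatives. Coro1b, a coronin of the cell's leading edge, differed by -0.28 ± 0.09 (SE, adjusted p = 0.155).

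Among 33 cross-linkers, stress fibre proteins and adhesion links, 10 differences were positive and 23 negative (median -0.06), led by Evl, a filament-elongating Ena/VASP protein (-0.24 ± 0.10 SE, adjusted p = 0.265), and Tagln, given above. Actin folds with the help of prefoldin and the CCT chaperonin. Of 18 folding and modification genes, 12 were positive and 6 negative (median 0.07), with the prefoldin subunits Pfdn2 (0.29 ± 0.10 SE, adjusted p = 0.171) and Pfdn4 (0.23 ± 0.11 SE, adjusted p = 0.318) first.

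**Figure D5:**
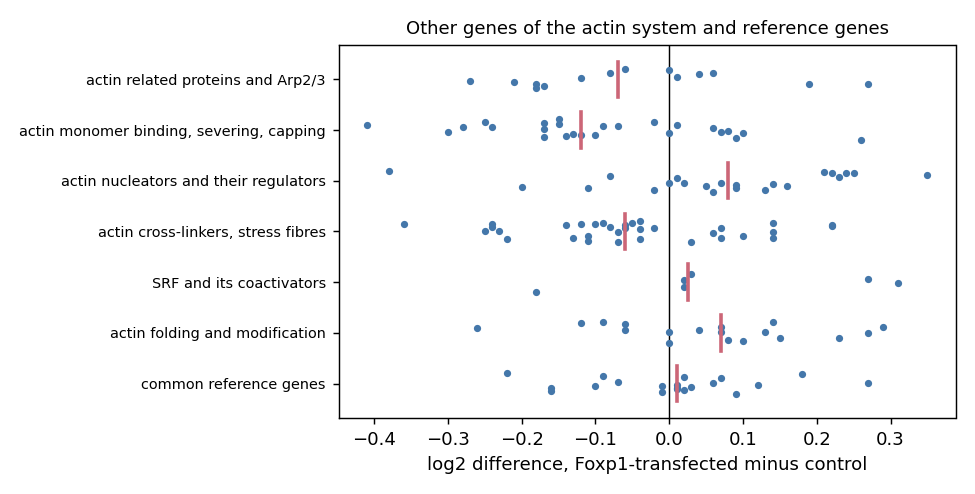
Log2 difference (x axis) of each detected gene on the 6 actin lists and the reference gene list, 1 point per gene, with the list median as a vertical bar. The points lie between -0.41 and 0.35, and the medians between -0.12 and 0.08.

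Transcription of many actin genes is driven by serum response factor, SRF, with its actin-sensing coactivators of the myocardin family, through a DNA element called the CArG box. Of 6 detected genes on that list, 0 passed, where 2.73% of all genes did, and a 0 among so few says little. Srf differed by 0.02 ± 0.09 (SE, adjusted p = 0.954) and the coactivator Mrtfa, listed as Mkl1, by 0.02 ± 0.30 (SE, adjusted p = 0.98). The Mrtfa probe was dim, reading between 70.3 and 116.8, and was detected on 5 arrays. The smallest p belonged to Fhl2, a LIM-domain cofactor (0.31 ± 0.11 SE, adjusted p = 0.206), and Elk3, a ternary complex factor (-0.18 ± 0.09 SE, adjusted p = 0.351).

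RefSeq promoter windows of GRCm38.p6, from 250 bases before to 50 after a gene's start, were matched for 5 of the 7 actin genes: Actg1, Acta1, Acta2, Actc1 and Actbl2. The CArG box, which reads the same on both strands, was found in the windows of Actg1, Acta1 and Actc1, and in 1.63% of all 32851 windows. With 1 G or C allowed in its A/T core, 9.98% of windows held it, and that of Acta2 was among them. The Actbl2 window held neither form. The 4 elements are shown to set the promoters of detected and undetected actin genes side by side, with the box in capitals on the gene's own (minus) strand. All of these are matches to letters and say nothing about binding in these cells.
Actg1, chr11:120348566-120348595, 90 bases before the start: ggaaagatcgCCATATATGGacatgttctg
Acta1, chr8:123894829-123894858, 73 bases before the start: tgcccgacacCCAAATATGGcttgggaagg
Actc1, chr2:114052903-114052932, 47 bases before the start: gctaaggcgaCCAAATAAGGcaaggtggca
Acta2, chr19:34255438-34255467, 84 bases before the start, with 1 C in the core: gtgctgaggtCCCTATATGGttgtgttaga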

How the data were processed

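Per the submitters' processing notes, GenomeStudio made the deposited probe intensities and detection p-values. From 29.5% to 31.6% of intensities on an array are below 0, so the authors had subtracted a background. A second deposited table was read as log2 values, since its columns follow the log2 intensities of their own arrays (r of deviations 0.922 to 0.975, at most 0.423 for another array); its exact scaling is not given in the sources used here.

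Intensities were corrected and quantile-normalized as in neqc of limma 3.58.1 (R 4.3.3; offset 16). The 12136 probes (47.2%) with detection p under 0.05 on at least 3 arrays entered limma's lmFit and eBayes (2-sided), and p-values were adjusted over all of them by Benjamini-Hochberg. The fit was tested on simulated data. Symbols were updated through RefSeq synonyms (17548 probes current, 7082 updated, 27 turned into dates and unnamed). The number of arrays limits the precision, and the files give no bead counts.

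Members, lists and tests were chosen with earlier results of these data known. Named are all member probes, Foxp1, from each list the 2 genes with the smallest p where none passed, the 5 genes with the widest probe range and the 5 most correlated with 2 Actb probes; Gapdh, Srf, Mrtfa, Gusb and Siah1b were added after their values were seen. Deviations of same-numbered arrays correlated at r = 0.257, 0.115 and 0.401, and arrays of different number were not compared with these. The labels state no pairing, so treating equal numbers as pairs is an assumption. Alternatives were another background correction, offset, scaling, filter, probe summary, weights, the replicate block, the authors' values and each array left out.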

Additional observations from a re-analysis of the deposited data

How the results depend on the processing

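The signs of all 10 detected actin probes, the Acta2 synonym included, were kept in each of the 14 alternatives run on them. The log2 difference of ILMN_2846865 ran from 4.65 to 5.61 and that of ILMN_2588055 from 4.69 to 5.60, and the range between Actb probes was 5.004 to 5.865 with 1 array left out and 5.34 with the replicate block. The paired fit changed no call among the named genes. The count of all genes past the threshold was 333 with the replicate block, 753 with array weights, and from 28 to 265 with 1 array left out, against 240; fits without an array also rest on fewer samples, and the cause was otherwise not tested. On the list of monomer-binding, severing and capping proteins the count was 1, Capzb lower, with an offset of 50, on the authors' values, with detection on all 6 arrays and with array weights, against 0. The other 6 lists stayed at 0 in each alternative. With 3 arrays a group and a median SE of 0.12, differences of that order cannot be called at this size.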

Other observations

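The split between probes of Golga2 was of another kind than that of Actb, as seen after its values were known. Its probe ILMN_1231420 read 41.0, 128 and 1077 in controls and 683, 651 and 984 in transfected cells, so control array 3 lay above all 3 Foxp1 arrays, and its SE of 0.66 was the highest of all detected probes. The other 3 Golga2 probes differed by -0.16, -0.07 and 0.09. For Chka, probe ILMN_3026397 differed by -0.33 ± 0.11 (SE) and the other probes by 0.75 ± 0.13 (SE) and 0.92 ± 0.19 (SE). Armc9 also had a pair of probes that rose beside others that did not. The pair differed by 0.94 ± 0.10 (SE) and 1.07 ± 0.25 (SE), the latter on a probe detected on 4 arrays. Its other probes differed by -0.29 ± 0.20 (SE) and -0.08 ± 0.13 (SE).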
